A study of Mus musculus with 2 samples.

Results

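The cells described here are the alveolar macrophages (AMs) with the highest share of transcripts from *Ear1* and *Ear2*. They were the highest 10% of the cells of both libraries pooled, ranked by the UMIs of *Ear1* and *Ear2* together as a share of all UMIs of the cell, and they numbered 1336 of 13355 cells. A UMI (unique molecular identifier) marks 1 captured transcript, and CPM is the number of UMIs of a gene per 1000000 UMIs of the same cells. Since *Ear1* and *Ear2* UMIs chose the cells, the levels of these genes are a description, and every other level was measured in the same UMIs of the same cells.

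AMs were sorted from the lungs of C57BL/6 mice labelled as 10 weeks old and profiled with the 10x Genomics 3′ droplet assay in 2 libraries. The control library came from mice given PBS in place of tumor cells, and the tumor library from mice whose left lung was implanted with LLC cells, a Lewis lung carcinoma line of the same strain that here expressed the fluorescent protein tdTomato. Both libraries went through the same sort, in which AMs were CD45+ cells with autofluorescence that stained for Siglec-F and F4/80, and the number of animals pooled for each was not given in the sources used here. With 1 library per condition there was no replicate, so no test was run, no p-value is given, and library and condition cannot be told apart. Parentheses hold exact 95% intervals, which cover counting error only.

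AMs are the resident phagocytes of the air spaces, which clear surfactant lipid and inhaled particles and depend on GM-CSF, TGF-beta and the transcription factor *Pparg*. The *Ear* genes (eosinophil-associated ribonucleases) encode small secreted ribonucleases of the RNase A family. In mice they were named after eosinophils, and *Ear1* and *Ear2* transcripts are also a known mark of AMs.

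*Ear1* (ENSMUSG00000072601) lies on chr14:43818765-43875517 on the minus strand and *Ear2* (ENSMUSG00000072596) on chr14:44102654-44103534 on the plus strand, in the GENCODE vM21 annotation of GRCm38, and both are protein-coding. The annotated span of *Ear1* is long because 1 of its 2 transcripts starts far upstream, and the window shown here is at the start of the other, shorter transcript, inside that span. The pair are close copies, and these windows are shown because a reader can see there how little separates them. The RefSeq promoter windows of 300 bases (build GRCm38.p6) lie on chr14:43819590-43819889, minus strand, for *Ear1* and on chr14:44102404-44102703, plus strand, for *Ear2*. Each is printed 5′ to 3′, with capitals at the bases that differ from the other window or have no partner in the alignment.
Ear1: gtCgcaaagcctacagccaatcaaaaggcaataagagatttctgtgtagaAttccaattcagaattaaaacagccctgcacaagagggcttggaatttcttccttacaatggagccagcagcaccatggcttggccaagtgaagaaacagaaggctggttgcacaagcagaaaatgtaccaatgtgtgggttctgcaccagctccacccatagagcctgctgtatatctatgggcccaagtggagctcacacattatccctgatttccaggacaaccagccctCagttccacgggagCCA
Ear2: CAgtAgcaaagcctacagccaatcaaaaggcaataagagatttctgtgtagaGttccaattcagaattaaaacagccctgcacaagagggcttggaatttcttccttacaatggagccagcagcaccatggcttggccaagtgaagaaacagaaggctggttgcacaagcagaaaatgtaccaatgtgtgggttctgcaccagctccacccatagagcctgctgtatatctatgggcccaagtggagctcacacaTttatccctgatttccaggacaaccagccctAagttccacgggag

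The windows matched at 294 of 303 alignment columns, an identity of 97.0%, with 3 mismatches and 6 gapped columns. The window of *Ear10*, a further copy, matched that of *Ear1* at 91.4% and that of *Ear2* at 89.5%, whereas *Ear6* and *Ear14* matched *Ear1* at 80.7% and 52.0%. The motif CCAAT, searched on both strands, was found 3 times in the window of *Ear1* and 3 times in that of *Ear2*, and it occurred in 37.4% of the 32851 promoter windows of this length. The motifs TATAAA (13.6% of windows), GAGGAAGT (3.20%), AGGTCA (16.3%), CACGTG (7.15%), GGAAGT (23.8%, also contained in GAGGAAGT) and TGANTCA (7.81%) were not found in either window.

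The likeness of the copies also bears on the counting. Of the 410 windows of 91 bases in the last 500 bases of the longest *Ear1* transcript, 105 (25.6%) occurred unchanged in a transcript of another gene, among them *Ear2*, *Ear10* and *Ear* pseudogenes. For *Ear2* this held for 38 of 410 windows (9.27%). Reads that fit several genes are left out by Cell Ranger at its default settings, so the split of UMIs between *Ear1*, *Ear2* and *Ear10* is uncertain, and their sum may be an undercount.

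A barcode counted as a cell when it had 500 or more genes, 2000 or more UMIs and no more than 10% of its UMIs from mitochondrial genes. The control library held 8485 barcodes and 67847088 UMIs, of which 5949 barcodes passed, and the tumor library held 9175 barcodes and 70738320 UMIs, of which 7406 passed. Median depth per passing cell was 10542 UMIs in control and 8443 UMIs in tumor. Of the barcode sequences, 25 occurred in both libraries, and 4 of the 1336 members carried 1 of them. Doublets were not removed, since Scrublet's automatic threshold called 0 cells in each library. In the control library 6.83% of the members and 7.18% of the other cells were among the highest 6% of doublet scores, ties included, and in the tumor library these shares were 3.94% and 7.43%.

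The lowest member had 2816 CPM of *Ear1* and *Ear2* together and the highest cell outside had 2815 CPM. The 50 members nearest the limit spanned 2816 to 2851 CPM, and the 50 nearest cells outside spanned 2776 to 2815 CPM. The share ran without a gap across the limit, as the plot of *Ear1* and *Ear2* share by cell shows, so the members are the upper end of a range. Within 10% of the limit on either side lay 696 cells.

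**Figure D1:**
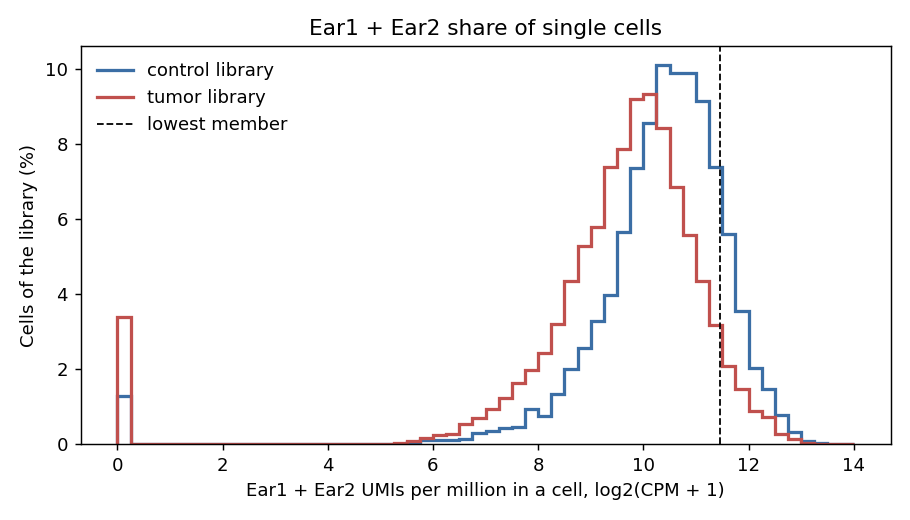
Distribution of the Ear1 and Ear2 share over single cells, as the percent of the cells of each library per bin of log2(CPM + 1). The dashed line marks the lowest member at 2816 CPM. Both libraries have 1 broad peak, with medians of 1451 CPM in control and 905 CPM in tumor, and the small peak at 0 holds cells with no UMI of either gene.

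Members made up 14.8% (13.9 to 15.7) of the control cells, 879 of 5949, and 6.17% (5.63 to 6.74) of the tumor cells, 457 of 7406. The control share was thus above the tumor share beyond counting error. The whole distribution lay lower in the tumor library, where 251 cells had no UMI of either gene against 77 cells in control. In the tumor library 3038 cells (41.0%) were high in *Apoe*, *S100a6*, *S100a4*, *Ifi27l2a* and *Crip1*, above the 95th percentile of control cells in the summed share of these genes, a set of transcripts that is prominent in tumor-library AMs. These cells were 17.1% of the tumor members and 42.6% of the other tumor cells. Without them in either library the shares were 12.4% in control and 6.89% in tumor. With the limit set at the highest 5% the shares were 7.48% and 3.01%, and at the highest 20% they were 29.2% and 12.6%, so control stayed above tumor at each limit.

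Once past the limit, the members of both libraries were alike in their *Ear* content. The median member had 3596 CPM of the pair in control (10th to 90th percentile 2947 to 5549) and 3569.5 CPM in tumor (2902 to 5529.5). This corresponded to a median of 37.0 and 31.0 UMIs of the pair per cell, against 13 and 7 UMIs in the other cells. Members were slightly shallower than the other cells, with a median of 9852 against 10693 UMIs in control and 7956 against 8479 UMIs in tumor. The median mitochondrial share was 2.81% against 2.67% in control and 2.28% against 2.47% in tumor.

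*Ear1* was at 1329.9 CPM in control members and 389 CPM in the other control cells, and at 1304 CPM in tumor members and 226 CPM in the other tumor cells. *Ear2* was at 2589.6 and 929.6 CPM in control and at 2622 and 689 CPM in tumor, where, as in the pairs of levels that follow unless stated otherwise, the members stand first and the other cells of the same library second. *Ear1* gave 33.9% (33.4 to 34.4) of the pair's UMIs in control members and 33.2% (32.5 to 34.0) in tumor members. In the other cells its part was smaller, at 29.5% (29.2 to 29.8) in control and 24.7% (24.4 to 25.1) in tumor.

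The genes were not high in entirely the same cells. Of the 879 control members, 590 were in the highest 10% by *Ear1* alone, 688 by *Ear2* alone and 409 by both. Of the 457 tumor members, 287 were so by *Ear1*, 361 by *Ear2* and 199 by both. When cells were chosen by *Ear1* alone, *Ear2* was still higher in them, with log2 ratios over the other cells of 1.04 in control and 1.41 in tumor. When they were chosen by *Ear2* alone, the log2 ratio of *Ear1* was 1.37 in control and 2.07 in tumor. Over all cells thinned to 2000 UMIs, Spearman's rho between the genes was 0.29 over 5949 control cells and 0.24 over 7406 tumor cells, a description of cells that share a library and a depth.

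Choosing cells and measuring the genes in the same UMIs raises the measured *Ear* levels. The UMIs of each cell were therefore also split at random into 2 sets, with members chosen on 1 set and levels taken from the other. The log2 ratio of the pair, members over other cells, was then 1.38 in control and 1.90 in tumor, against 1.57 and 2.10 without the split.

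In cells thinned to 2000 UMIs, an *Ear2* UMI was found in 99.9% of control members and 79.2% of the other control cells, and in 98.7% of tumor members and 69.5% of the other tumor cells. For *Ear1* these shares were 90.1% and 47.4% in control and 87.1% and 31.8% in tumor. Unthinned, *Ear1* shares were 99.4% and 85.3% in control and 97.2% and 62.0% in tumor. Cells of other types, defined by at least 3 markers of 1 other type and a low AM marker sum, numbered 13 in control and 20 in tumor and should lack these genes. No cell had fewer than 2000 UMIs, so none was left out by the thinning. After thinning, cells of other types held an *Ear2* UMI in 2 of 13 and 0 of 20 cells, at median depths of 3358 and 10700.5 UMIs, below the shares in the AMs outside the set. With 3 counts taken as the limit that a count of 0 allows, 0 of 20 cells allows a share of up to 15%.

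The other genes of the family gave few UMIs or differed less. *Ear10* had 6 UMIs in control members and 1 in tumor members, and *Ear14* had 0 UMIs in the members of both libraries. *Ear6* was at 3.1 CPM in control members against 6.99 CPM in the other control cells, and at 6.33 against 4.58 CPM in tumor. *Rnase6*, a ribonuclease of myeloid cells, was at 102 and 71.3 CPM in control and 127 and 60.1 CPM in tumor. *Ang*, which encodes angiogenin, was at 20.2 and 14.3 CPM in control and 22.4 and 12.3 CPM in tumor. Both were higher in the members of each library but passed 1.5-fold only in tumor. *Rnh1*, the cytosolic inhibitor of these enzymes, was at 319 and 345 CPM in control and 289 and 333 CPM in tumor.

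The label of the cells was checked against markers. All 20 AM identity genes were detected, 13 above and 7 below 0 in control and 12 above and 8 below 0 in tumor by log2 ratio, and *Fabp5* was at least 1.5-fold lower in both libraries, beside 0.695% over all genes tested. *Car4* and *Ctsd* were below 0 in both libraries, at −0.24 and −0.21 in control and −0.40 and −0.29 in tumor. The summed level of the list, to which *Chil3* gave the most, was 27212 CPM in control members against 26721 CPM in the other control cells, and 31129 against 27905 CPM in tumor. *Siglecf*, the receptor used for the sort, was at 150.0 and 135 CPM in control and 148 and 99.4 CPM in tumor. *Chil3*, a chitinase-like protein abundant in AMs, was at 12573 and 11488 CPM in control and 14192 and 10302 CPM in tumor. *Pparg* was at 138 and 126 CPM in control and 142 and 117 CPM in tumor, and *Mrc1*, the mannose receptor, at 909.9 and 842 CPM and at 792 and 706 CPM. The scavenger receptor *Marco* was at 640.4 and 577 CPM in control and at 378 and 196 CPM in tumor.

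Eosinophils, the cells after which the family was named, were not seen among the members. Of 9 eosinophil markers, 7 had 0 UMIs in the members of each library, including *Prg2*, *Epx*, *Prg3* and *Ccr3*, and the list's sum of 47.5 CPM in control members and 38.5 CPM in tumor members came nearly all from *Siglece*, which was at 47.1 and 38.2 CPM. Of the 1336 members, 0 met the rule for cells of other types. T or NK cell markers summed to 0.230 CPM in control members and 0 in tumor members, B or plasma cell markers to 1.03 and 0.527 CPM, dendritic cell markers to 2.99 and 3.95 CPM and fibroblast markers to 0.230 and 1.58 CPM. Epithelial markers summed to 156 CPM in control members and 123 CPM in the other control cells, and to 42.2 and 42.5 CPM in tumor, and their part in the differences below was not tested. Neutrophil markers summed to 93.1 and 118 CPM in control and to 142 and 151 CPM in tumor, with *S100a9* at 0 in the members of both libraries. Of the markers of recruited macrophages, *Ly6c2* was at 0 in the members of both libraries, and *Ccr2* was at 4.71 CPM in control members and 7.38 CPM in tumor members. Markers of non-classical monocytes, among them *Cx3cr1*, summed to 410.5 CPM in control members and 461 CPM in the other control cells, and to 565 and 695 CPM in tumor. *Cx3cr1* was low, at 5.29 CPM in control members against 1.47 CPM in the other control cells and 8.43 against 2.82 CPM in tumor, yet its log2 ratios of 1.85 (1.29 to 2.39) and 1.58 (0.99 to 2.13) were above 0 in both libraries.

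Members were then compared with the other cells of their own library over the 5608 genes that reached 20 CPM in the higher group and 10 UMIs in each library. A gene was called when it differed at least 1.5-fold in the same direction in both libraries. Of the 5608 genes, 12 were higher (0.214%) and 39 were lower (0.695%), and the 12 include *Ear1* and *Ear2*. Within a library, 18 genes were higher (0.321%) and 53 lower (0.945%) in control, and 95 were higher (1.69%) and 202 lower (3.60%) in tumor. The median log2 ratio over all genes tested was −0.08 in control and −0.07 in tumor. Apart from *Ear1* and *Ear2*, the differences were thus few and mostly modest.

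**Figure D2:**
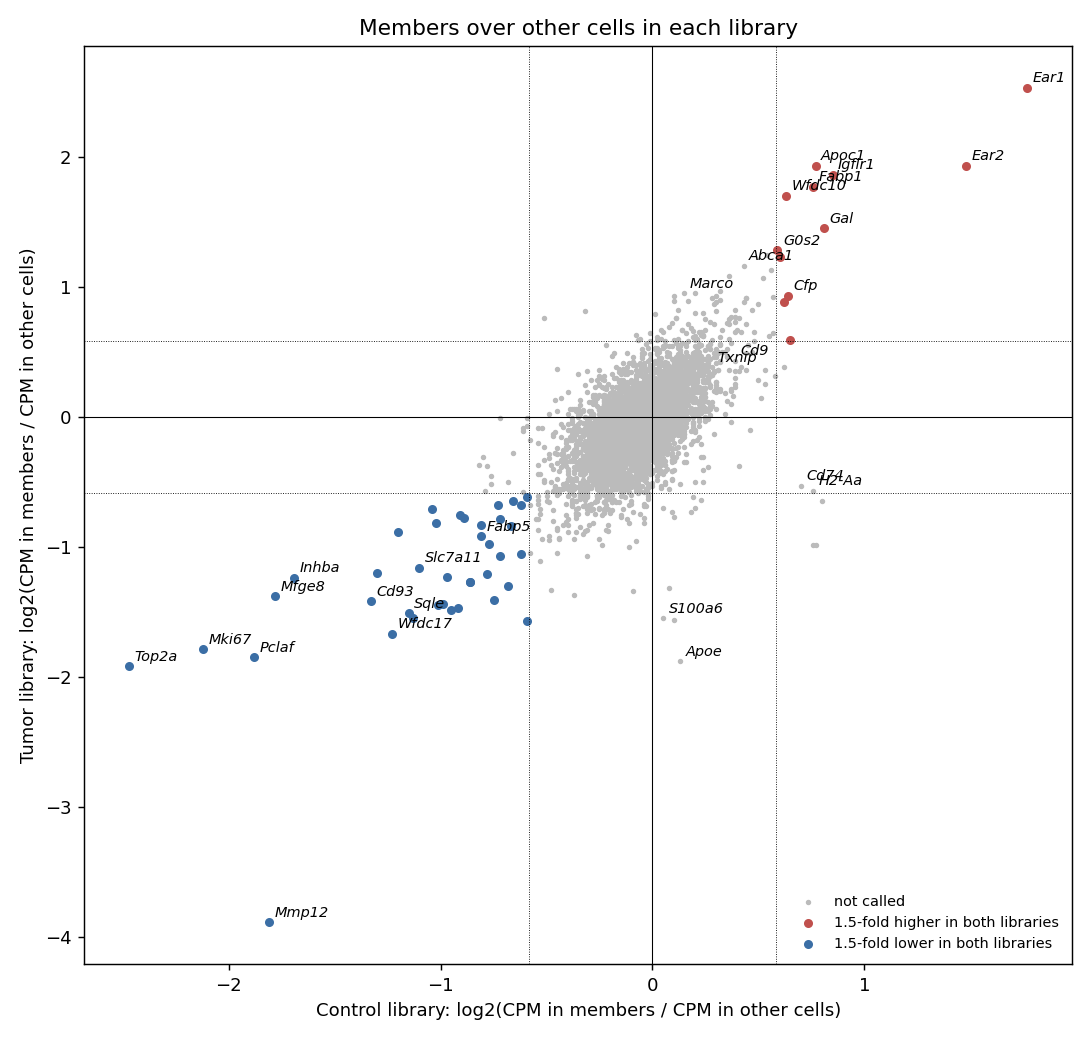
Log2 ratio of CPM in members over other cells in the control library (horizontal) and the tumor library (vertical) for 5608 genes, with dotted lines at 1.5-fold. Red marks the 12 genes higher and blue the 39 genes lower in both libraries. Ear1 and Ear2 chose the cells. Cd74 and H2-Aa lie off the diagonal, above 0 in control and below 0 in tumor. Apoe and S100a6 are below 0 in tumor and near 0 in control, at 0.13 and 0.05 with intervals that include 0.

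Among the genes called higher in both libraries, the log2 ratio in tumor was highest for *Ear1*, at 2.53. *Ear2* and *Apoc1* followed at 1.93, *Igflr1* at 1.86 and *Fabp1* at 1.77. Of 16 genes of fatty acid handling tested, 1 was called higher and 1 lower, beside 0.214% and 0.695% over all genes, with a median log2 ratio of −0.01 in control and 0.15 in tumor. Of 14 genes of apolipoproteins and cholesterol handling tested, 1 was called higher and 4 lower, beside the same shares, with medians of −0.08 and −0.28. More genes of that list were thus lower than higher, *Sqle* and *Insig1* among them, and *Apoc1* went against the rest of the calls. *Fabp1*, a fatty acid binding protein, was at 799 CPM in control members and 472 CPM in the other control cells, and at 391 and 115 CPM in tumor. Its log2 ratio was 0.76 (0.72 to 0.80) in control and 1.77 (1.69 to 1.85) in tumor. A *Fabp1* UMI was found in 59.4% of thinned control members and 45.3% of the other cells, and in 36.3% and 15.7% in tumor. *Fabp1* was thus lower in the tumor library, yet more common in the members of each library.

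*Apoc1*, an apolipoprotein that macrophages express, was at 35.2 CPM in control members and 20.7 CPM in the other control cells, and at 106 and 27.9 CPM in tumor. The log2 ratios were 0.77 (0.58 to 0.95) and 1.93 (1.77 to 2.09). After thinning, 13.6% (10.6 to 17.1) of tumor members and 3.78% (3.35 to 4.26) of the other tumor cells held an *Apoc1* UMI. In control the shares were 4.89% (3.56 to 6.53) and 3.27% (2.80 to 3.80), where the intervals overlap. *G0s2*, an inhibitor of the lipase that empties lipid droplets, was at 28.0 and 18.6 CPM in control and 44.8 and 18.5 CPM in tumor. *Mgst3*, a membrane glutathione transferase, was at 278 and 181 CPM in control and 199.8 and 109 CPM in tumor.

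The other higher genes were of several kinds. *Igflr1*, a receptor of the tumor necrosis factor receptor type, was at 97.4 and 53.9 CPM in control and 53.0 and 14.6 CPM in tumor, with log2 ratios of 0.85 (0.74 to 0.96) and 1.86 (1.63 to 2.08). *Gal*, which encodes the neuropeptide galanin, was at 124 and 70.7 CPM in control and 41.4 and 15.2 CPM in tumor. *Cfp*, which encodes properdin, the positive regulator of the alternative complement pathway, was at 98.3 and 62.9 CPM in control and 97.5 and 51.0 CPM in tumor. *Wfdc10* was at 86.7 and 56.2 CPM in control and 88.6 and 27.3 CPM in tumor. *Cpne5*, a calcium-dependent membrane-binding copine, was at 146 and 96.5 CPM in control and 72.5 and 30.9 CPM in tumor, where its log2 ratio of 1.23 was 0.64 without the cells high in *Apoe* and *S100a6*. *Igflr1*, *Gal*, *Cpne5*, *Fabp1*, *Mgst3*, *Cfp* and *AY036118* had their lowest level in the other cells of the tumor library and their highest in control members. Several of the higher genes were close to the limit, and *Wfdc10*, *G0s2*, *Cfp*, *AY036118*, *Apoc1*, *Cpne5* and *Mgst3* fell to log2 ratios of 0.47, 0.48, 0.49, 0.50, 0.51, 0.51 and 0.53 in control in at least 1 other setting, under 1.5-fold.

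The remaining higher gene, *AY036118*, is known, like *Gm42418*, as a gene model that can collect reads from ribosomal RNA. *AY036118* was at 1980.2 and 1263 CPM in control and 1490.1 and 987 CPM in tumor. *Gm42418* was at 47166 and 31768 CPM in control and 49087 and 31501 CPM in tumor. Together they took 4.91% of the UMIs of control members against 3.30% in the other control cells, and 5.06% against 3.25% in tumor. With both genes left out of the totals and the genes tested, 13 genes were higher and 38 lower, of which 11 and 37 were among those called before.

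*Cd9* and *Txnip*, which were named with *Ear1* and *Ear2* as markers of these cells, did not reach 1.5-fold. The tetraspanin *Cd9* was at 4922 and 3751 CPM in control, a log2 ratio of 0.39 (0.38 to 0.41), and at 4304 and 3188 CPM in tumor, a log2 ratio of 0.43 (0.41 to 0.46). *Txnip*, the thioredoxin-binding arrestin that restrains glucose uptake, was at 177 and 146 CPM in control, a log2 ratio of 0.28 (0.21 to 0.36), and at 249.9 and 192 CPM in tumor, a log2 ratio of 0.38 (0.29 to 0.48). Both differences were above 0 in each library. Of the 10 tetraspanins and 14 *Txnip*, arrestin and quiescence genes tested 0 were called, close to the 0.214% higher and 0.695% lower over all genes, and the median log2 ratio of the tetraspanins was 0.01 in each library.

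A list of 10 targets and partners of the sterol sensor LXR was added after the values were seen, so its count is a description. Of its 9 genes tested, 1 was called higher, *Apoc1*, beside 0.214% over all genes, and its median log2 ratio was 0.27 in control and 0.54 in tumor. All 9 lay above 0 in control, while *Apoe* and *Nr1h3*, which encodes LXR alpha, lay below 0 in tumor at −1.88 and −0.10. *Abca1*, the cholesterol exporter, was at 108 and 80.1 CPM in control and 121 and 54.0 CPM in tumor, with log2 ratios of 0.43 (0.33 to 0.53) and 1.16 (1.02 to 1.30). *Pltp*, *Mylip* and *Lpcat3* had log2 ratios of 0.43, 0.30 and 0.26 in control and 0.88, 0.88 and 0.54 in tumor.

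Genes of sterol synthesis answer to the transcription factor SREBP2, which raises them when cellular sterol is low. Of 12 tested from a list added after the values were seen, 7 were called lower in both libraries, beside 0.695% over all genes. *Sqle*, squalene epoxidase, was at 9.77 CPM in control members and 21.6 CPM in the other control cells, and at 12.7 and 36 CPM in tumor. Its log2 ratios were −1.15 (−1.48 to −0.83) and −1.51 (−1.95 to −1.10). *Cyp51*, the sterol demethylase, was at 33.7 and 66.9 CPM in control and 42.2 and 114 CPM in tumor. *Idi1*, an isomerase of the isoprenoid steps, was at 23.3 and 44.1 CPM in control and 29.0 and 80.5 CPM in tumor.

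This list holds 18 sterol genes, and since it was added after the values were seen, its count is a description. Beside the 7 genes called lower, 0 of the 12 tested were called higher in both libraries. The median log2 ratio of the 12 was −0.69 in control and −1.06 in tumor. The 7 were *Sqle*, *Idi1*, *Fdps*, *Fdft1*, *Cyp51*, *Msmo1* and *Insig1*. All 12 lay below 0 in each library, where 3866 of all 5608 genes did in control and 3481 did in tumor. *Srebf2*, which encodes SREBP2, was at 31.7 and 47.3 CPM in control and 31.4 and 64.9 CPM in tumor. Of the members, 0.455% in control and 3.28% in tumor were in the highest 10% of all cells for this list, against 4.87% and 15.4% of the other cells. Without the cells high in *Apoe* and *S100a6*, a setting in which the highest 10% was taken anew and left 1002 members, 9 of 12 genes were called lower.

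Among the genes tested, cell cycle genes had the lowest ratios in control. *Top2a*, the topoisomerase of dividing cells, was at 11.2 CPM (9.04 to 13.6) in control members and 61.9 CPM in the other control cells, and at 7.12 CPM (4.69 to 10.4) and 26.9 CPM in tumor. *Mki67*, which encodes the proliferation antigen Ki-67, was at 16.8 and 72.9 CPM in control and 8.96 and 31.1 CPM in tumor. *Pclaf*, a partner of the replication clamp, was at 13.7 and 50.2 CPM in control and 5.80 and 20.9 CPM in tumor, where its log2 ratio of −1.85 was −1.25 without the cells high in *Apoe* and *S100a6*. The 16 genes of G2 and M phase summed to 73.3 CPM in control members against 391 CPM in the other control cells, and to 50.6 against 164 CPM in tumor. Only 2 of them, *Top2a* and *Mki67*, passed the minimum level and both were called lower, beside 0.695% over all genes. Without the highest 10% of cells for this list, an alternative added after the data were seen, the log2 ratios of *Top2a*, *Mki67* and *Pclaf* in control were −0.04, 0.38 and −0.33, but *Top2a* and *Mki67* helped to choose the cells left out, which moves their ratios toward 0, and the highest 10% was taken anew among the cells left. In tumor *Pclaf* was then at −0.24, under 1.5-fold, while *Mki67* was at −0.84 and *Top2a* also stayed more than 1.5-fold lower.

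Of the 6 S phase genes tested 0 were called, close to the 0.214% higher and 0.695% lower over all genes, and the median log2 ratio was −0.21 in control and −0.14 in tumor. *Pcna*, the replication clamp, was at 192 and 209 CPM in control and 166 and 167 CPM in tumor. In the highest 10% of all cells for the G2 and M phase list were 8.08% (6.36 to 10.1) of control members against 13.7% of the other control cells, and 5.91% (3.93 to 8.48) against 7.80% in tumor, where the intervals overlap. Members with these transcripts were thus present, but they were a smaller share in control.

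*Mmp12*, macrophage elastase, had the lowest ratio of any called gene in tumor. It was at 39.0 CPM (34.9 to 43.3) in control members and 136 CPM in the other control cells, and at 4.22 CPM (2.41 to 6.85) and 62.4 CPM in tumor, where members held 16 UMIs of it. The log2 ratios were −1.81 (−1.97 to −1.65) and −3.89 (−4.69 to −3.19), and −2.76 in tumor without the cells high in *Apoe* and *S100a6*. *Mfge8*, a bridge between phagocytes and dying cells, was at 21.0 and 72.2 CPM in control and 41.4 and 108 CPM in tumor, with a tumor log2 ratio of −1.38, and −0.68 without those cells. *Gpnmb*, a glycoprotein of lipid-laden macrophages, was at 127 and 216 CPM in control and 212 and 419 CPM in tumor, where its log2 ratio was −0.46, under 1.5-fold, without those cells.

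*Inhba*, which encodes the subunit of activin A, was lower in the members of both libraries. It was at 15.6 CPM (13.1 to 18.5) in control members and 50.4 CPM in the other control cells, and at 64.6 CPM (56.7 to 73.2) and 152 CPM in tumor. The log2 ratios were −1.69 (−1.95 to −1.44) and −1.24 (−1.43 to −1.05). Over the other settings they were between −1.86 and −0.83 in control and between −1.63 and −0.94 in tumor. After thinning, 8.32% (5.95 to 11.2) of tumor members held an *Inhba* UMI against 14.4% (13.6 to 15.2) of the other tumor cells, and 2.62% against 4.60% did so in control. *Inha* was at 0 in all 4 groups of cells and *Inhbb* at 0 in the members of both libraries, and *Fstl1*, a follistatin-like protein singled out after its values were seen, was at 1.49 and 19.6 CPM in control and 2.37 and 40.8 CPM in tumor, just under the minimum level in control.

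Single genes of other lists were also called lower. *Slc7a11*, the cystine importer and a target of NRF2, was at 102 and 219 CPM in control and 98.6 and 221 CPM in tumor, with log2 ratios of −1.10 (−1.20 to −1.0) and −1.16 (−1.32 to −1.02). Of the 11 heme, iron and NRF2 genes tested it was the 1 called, beside 0.695% lower over all genes. In control 0 of the 11 lay above 0, where 1742 of all 5608 genes did, and in tumor 3 did, where 2127 of all genes did. *Srxn1*, *Txnrd1* and *Gclm* had log2 ratios of −0.55, −0.54 and −0.48 in control and −0.79, −0.44 and −0.37 in tumor. *Fabp5*, a fatty acid binding protein, was at 618 and 1085 CPM in control and 949 and 1794 CPM in tumor. The log2 ratio of *Fabp5* in tumor was −0.49, under 1.5-fold, without the cells high in *Apoe* and *S100a6*. *Wfdc17*, whose tumor log2 ratio of −1.67 was −0.85 without those cells, was at 103 and 242 CPM in control and 149.7 and 477 CPM in tumor, and the chemokine *Cxcl1*, the 1 called of 15 cytokine and chemokine genes tested beside 0.695% lower over all genes, at 11.6 and 28.6 CPM and at 34.0 and 77.9 CPM. *Cd93*, a receptor of phagocytes, was at 19.3 and 48.7 CPM in control and 45.3 and 122 CPM in tumor.

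Several of these genes changed over the whole range of *Ear* content, as the plot of levels by decile shows. Others changed mostly near its upper end, and for some the course differed between the libraries. From the lowest to the highest decile of control cells, *Fabp1* went from 206 to 849 CPM, *Igflr1* from 25 to 104 CPM and *Gal* from 30.5 to 127 CPM. *Mmp12* went from 474 to 31.3 CPM, *Slc7a11* from 386 to 93.8 CPM and *Fabp5* from 2209.7 to 607 CPM. In tumor, *Fabp1* went from 30.3 to 343 CPM, *Mmp12* from 219 to 5.37 CPM and *Fabp5* from 3267 to 1040.2 CPM. *Apoc1* was different, at 18.8 CPM in the lowest, 36.4 CPM in the eighth and 92.9 CPM in the highest decile of tumor cells. *Cd9* was nearly level over the lower deciles, at 3711 CPM in the lowest and 3697 CPM in the sixth decile of control cells, before 5043 CPM in the highest. *AY036118* went from 1117 CPM in the lowest to 871 CPM in the fifth and 1361 CPM in the highest decile of tumor cells. In control it climbed over most of the range, from 1053 CPM in the lowest to 1286 CPM in the sixth and 2101 CPM in the highest decile. *G0s2* was between 12.6 and 19.9 CPM over the lowest 7 deciles of control cells. In tumor *G0s2* climbed over most of the range, from 6.66 CPM in the lowest to 23.3 CPM in the sixth and 40.8 CPM in the highest decile.

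**Figure D3:**
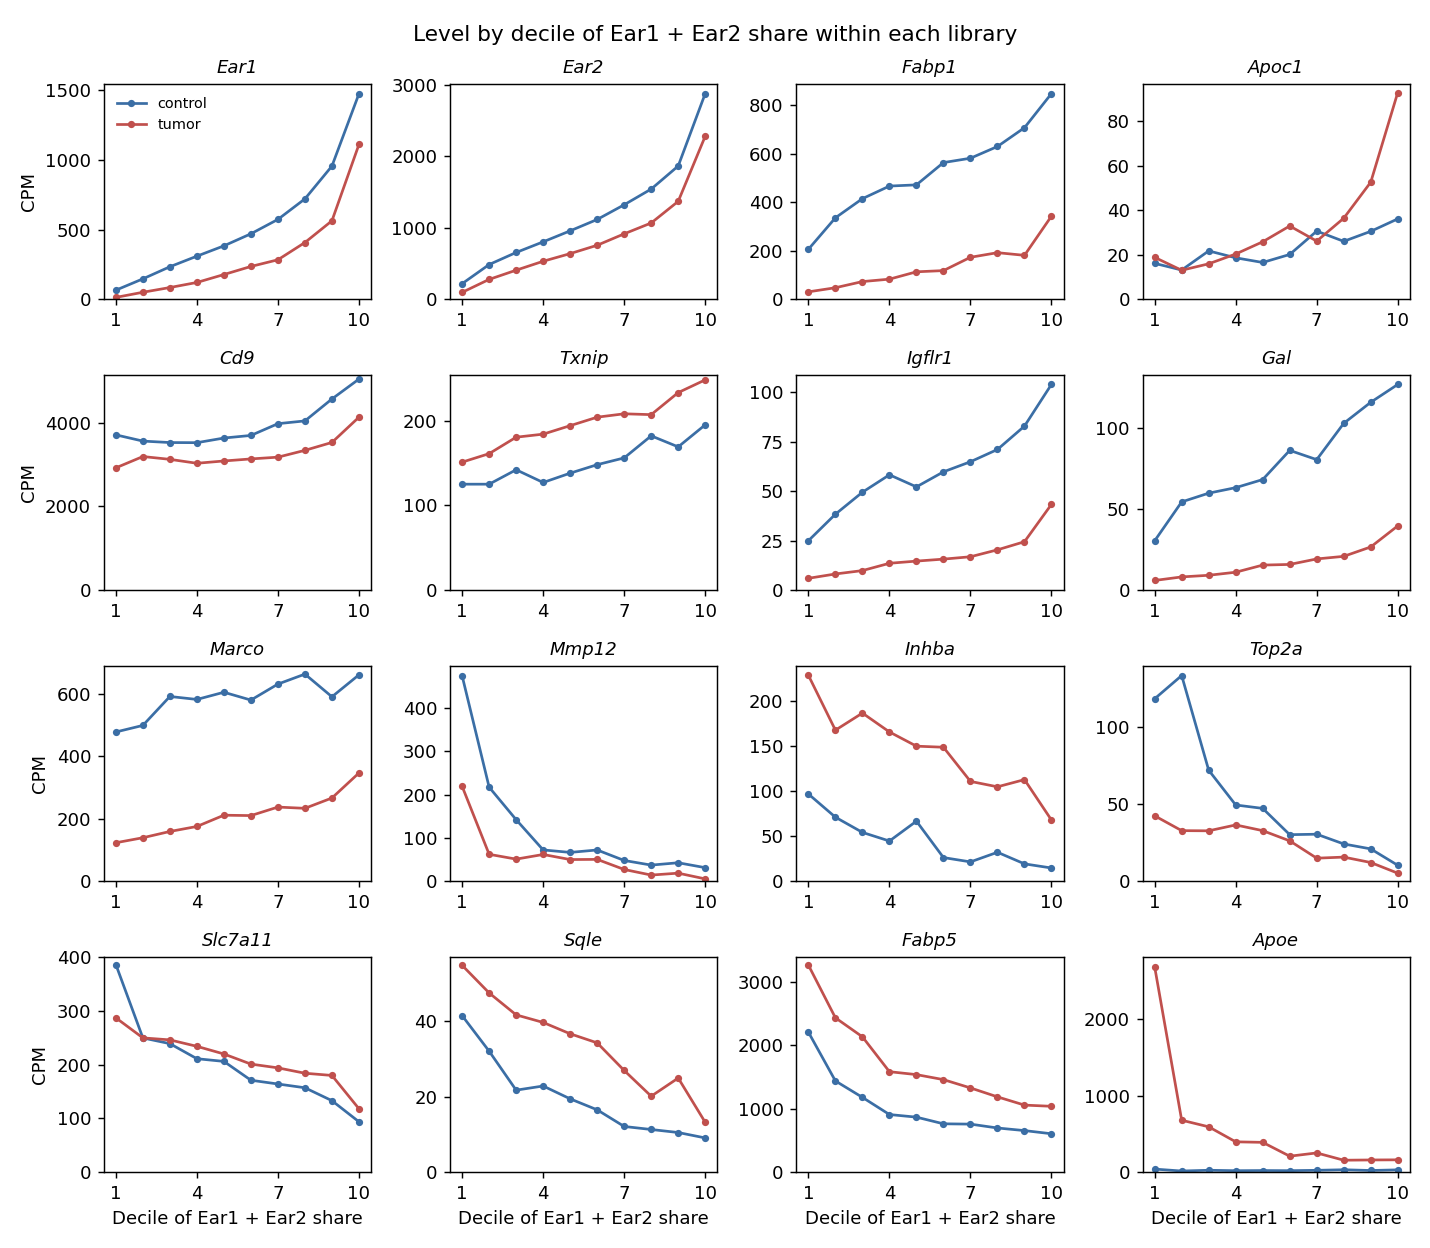
CPM of the named genes in each decile of the cells of a library, ordered by the Ear1 and Ear2 share (1 lowest, 10 highest), with control in blue and tumor in red. Ear1 and Ear2 set the order. Fabp1, Igflr1 and Gal climb with it and Mmp12, Top2a, Sqle and Fabp5 descend, while Apoe reaches 2680.1 CPM in the lowest decile of tumor cells and 41.1 CPM in the lowest decile of control cells.

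MHC class II genes present peptides to CD4+ T cells. Of the 6 tested 0 were called, beside 0.214% higher and 0.695% lower over all genes, but a call needs the same direction in both libraries. In control 6 lay above 0, where 1742 of all 5608 genes did, and in tumor 5 lay below 0, where 3481 did, and the difference between libraries was not tested. *H2-Aa*, *H2-Ab1*, *H2-Eb1* and *Cd74* passed 1.5-fold in control, at 0.76, 0.80, 0.76 and 0.70, beside 0.321% higher over all genes there. *H2-Ab1* and *H2-Eb1* were more than 1.5-fold lower in tumor, at −0.65 and −0.99, beside 3.60% lower over all genes. *H2-Aa* was at 148 CPM in control members and 87.2 CPM in the other control cells, and at 59.6 and 88.7 CPM in tumor. *Cd74*, the invariant chain, was at 664 and 409.6 CPM in control and 249 and 360.2 CPM in tumor. *H2-DMa*, which edits the peptides, differed from them and was higher in both libraries, at 356 and 243 CPM in control and 266 and 173 CPM in tumor. The median log2 ratio of the 6 genes tested was 0.73 in control and −0.55 in tumor. Without the cells high in *Apoe* and *S100a6*, *Cd74* and *H2-Ab1* had log2 ratios of 0.23 and 0.17 in tumor and *H2-Aa* and *H2-Eb1* of −0.18 and −0.25, and the tumor median was 0.17 over the 5 genes then tested.

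Of the 12 genes of the list with *Apoe* and *S100a6*, 3 were called lower in both libraries, *Ifi27l2a*, *Crip1* and *Gpnmb*, beside 0.695% over all genes, and the median log2 ratio was 0.02 in control and −1.13 in tumor. The tumor median was 0.02 over the 11 genes tested without the cells high in this list. *Apoe* was at 27.6 and 25.3 CPM in control and at 171 and 629.9 CPM in tumor, with log2 ratios of 0.13 (−0.08 to 0.32) and −1.88 (−1.99 to −1.77). Without the cells high in *Apoe* and *S100a6*, the ratio of *Apoe* in tumor was 0.41, but *Apoe* itself helped to choose the cells left out. *S100a6*, a calcium-binding protein, was at 53.9 and 52.1 CPM in control and 206 and 601 CPM in tumor, and without those cells its log2 ratio was 0.72 in control and −1.10 in tumor. *Spp1*, which encodes osteopontin, was at 602 and 561 CPM in control and 867 and 2557 CPM in tumor. *Ifi27l2a*, an interferon-responsive gene, and *Crip1* were lower in both libraries, with log2 ratios of −0.59 and −0.86 in control and −1.57 and −1.27 in tumor, where *Ifi27l2a* was at −0.88 without those cells. *Il1b*, the inflammatory cytokine, was at 102 and 141 CPM in control and 283 and 711 CPM in tumor.

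The plot of shares among the highest cells gives the share of cells that were high for each list. In the highest 10% of all cells for type I interferon genes were 5.91% (3.93 to 8.48) of tumor members and 18.2% (17.3 to 19.2) of the other tumor cells, and for inflammatory cytokines 4.16% (2.52 to 6.42) and 17.0% (16.2 to 17.9). For the list with *Apoe* and *S100a6* the shares were 3.50% and 17.9%. *Ifi27l2a* belongs to the interferon list and also helped to mark the cells high in *Apoe* and *S100a6*. Without those cells, the median log2 ratio of the 4 interferon genes tested was −0.23 in tumor, against −0.57 with them. MHC class II genes were highest in 19.8% (17.2 to 22.6) of control members and 11.9% (11 to 12.8) of the other control cells, against 6.78% (4.66 to 9.49) and 7.60% (6.99 to 8.25) in tumor, where the intervals overlap. *Fabp1* and *Acaa1b*, which encodes a peroxisomal thiolase, together, chosen after their values were seen, were highest in 31.3% (28.2 to 34.5) of control members and 16% of the other control cells, and in 10.7% (8.04 to 13.9) and 2.91% in tumor.

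**Figure D4:**
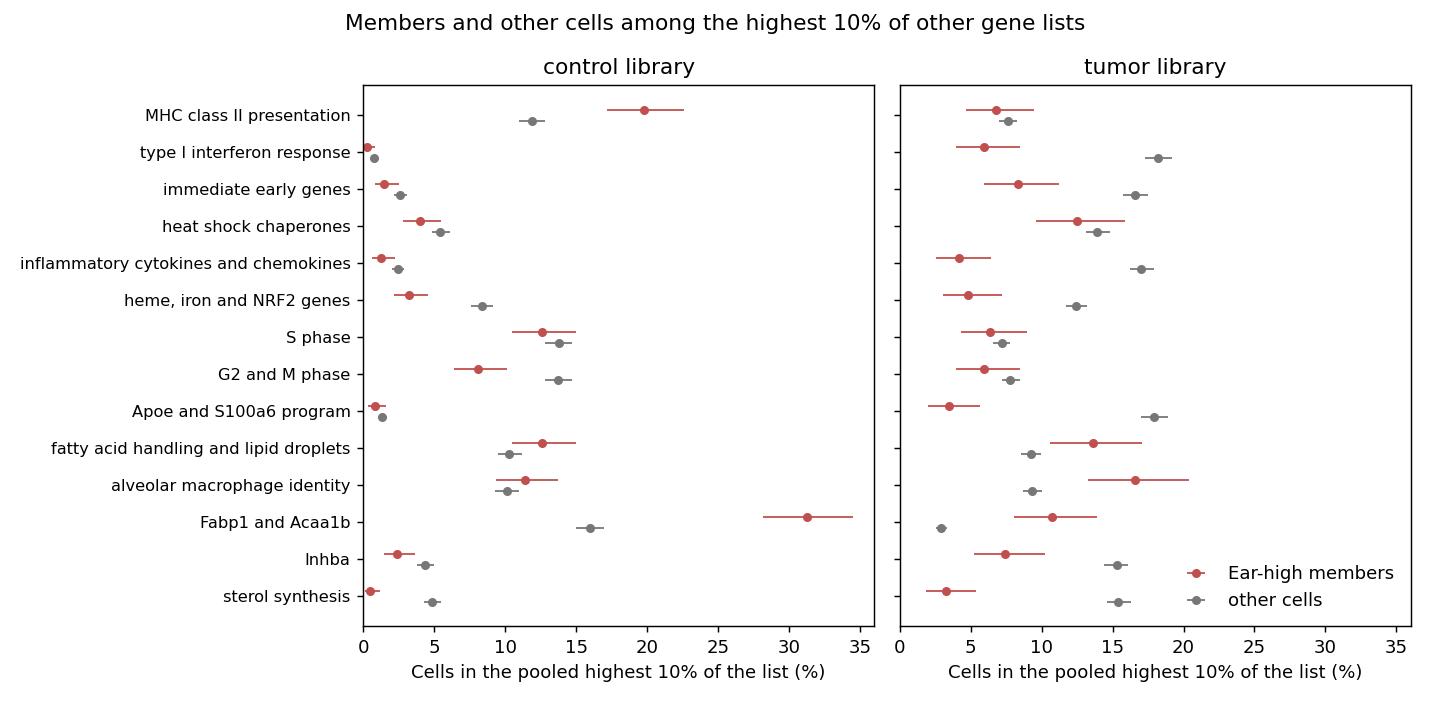
Percent of members (red) and of other cells (grey) that were in the pooled highest 10% of all cells for each gene list, with exact 95% intervals, in control (left) and tumor (right). In tumor, members are below the other cells for interferon, cytokine, Apoe and sterol lists, and in both libraries they are above them for Fabp1 with Acaa1b.

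The last comparison set the members of the tumor library against those of the control library. Of the 5803 genes that reached 20 CPM on the higher side, 47 were at least 2-fold higher (0.810%) and 28 at least 2-fold lower (0.483%) in tumor members. In the other cells, 141 of 5999 genes were higher (2.35%) and 48 lower (0.800%). The comparisons in members and in the other cells use different cells of the same libraries, so their values are given side by side. The median log2 ratio was −0.02 in members and −0.03 in the other cells. Since the set was cut at the same *Ear* share in both libraries, *Ear1* and *Ear2* were near equal by construction.

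Among the genes higher in tumor members, *Apoe* had a log2 ratio of tumor over control of 2.63 in members and 4.64 in the other cells, *S100a6* of 1.93 and 3.53, and *Ifi27l2a* of 2.80 and 3.78. Without the cells high in *Apoe* and *S100a6*, *S100a6* in members was at 0.58, under 2-fold. *Apoe* was then at 24.2 CPM in control members and 99.3 CPM in tumor members, and at 17.4 and 74.5 CPM in the other cells. *Ifi27l2a* was then at 25.7 and 101 CPM in members and at 39.0 and 186 CPM in the other cells. These genes helped to choose the cells left out. *Inhba* was at 2.05 (1.74 to 2.36) in members and 1.59 (1.53 to 1.66) in the other cells, an order that depended on the limit, since at the highest 5% it was at 1.58 in members, with members over other cells at −1.56 in control and −1.63 in tumor. *Apoc1* had 1.60 in members and 0.43 in the other cells. *Syngr1*, at 3.33 CPM in control members and 24.8 CPM in tumor members, had 2.89 and 2.42, and *Vps37b*, *Ifi203* and *Hopx* had 2.23, 1.97 and 1.91 in members. With members chosen by *Ear1* alone, *Syngr1* and *Vps37b* were at 1.54 and 1.26, and *Hopx* was at 0.60, under 2-fold.

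Among the genes lower in tumor members, *Mmp12* had a log2 ratio of −3.21 in members and −1.13 in the other cells. Over the other settings its ratio in members was between −3.44 and −2.17. Without the cells high in *Apoe* and *S100a6*, *Mmp12* was at 28.7 CPM in control members and 4.04 CPM in tumor members. In the other cells it was then at 117 CPM in control and 27.3 CPM in tumor. Of 6 MHC class II genes tested, 4 were called lower in members, beside 0.483% over all genes. *H2-Eb1* was at −1.64 (−1.99 to −1.31) in members and 0.10 (0.02 to 0.18) in the other cells, and *Cd74* at −1.41 and −0.19. Without the cells high in *Apoe* and *S100a6*, these genes were lower in tumor in the other cells too. *Cd74* was then at 658 CPM in control members and 193 CPM in tumor members, and at 402 and 165 CPM in the other cells. *H2-Eb1* was at 74.0 and 14.5 CPM in members and at 37.8 and 17.2 CPM in the other cells. *Epcam*, an adhesion molecule typical of epithelium, was at 87.4 CPM in control members and 11.9 CPM in tumor members, and at 48.5 and 3.94 CPM in the other cells. The 8 markers of alveolar or airway epithelium, *Epcam* among them, summed to 156 CPM in control members against 123 CPM in the other control cells, and to 42.2 against 42.5 CPM in tumor. Of the other markers, *Sftpc*, *Sftpb*, *Sftpa1*, *Cdh1* and *Scgb1a1* were each at a lower level in members than in the other cells of both libraries, with *Sftpc* at 14.8 and 16.4 CPM in control and 7.64 and 9.36 CPM in tumor, and *Krt8* and *Krt18* were under 1 CPM. In control and tumor members in turn, *Spag11b* was at 31.7 and 7.91 CPM, the protease *Klk8* at 32.1 and 11.6 CPM, and *Nt5e*, the enzyme CD73, at 24.3 and 8.17 CPM. *Fabp1* and *Gal* were lower in tumor members by less than in the other cells, at −1.03 and −1.58 against −2.04 and −2.22.

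**Figure D5:**
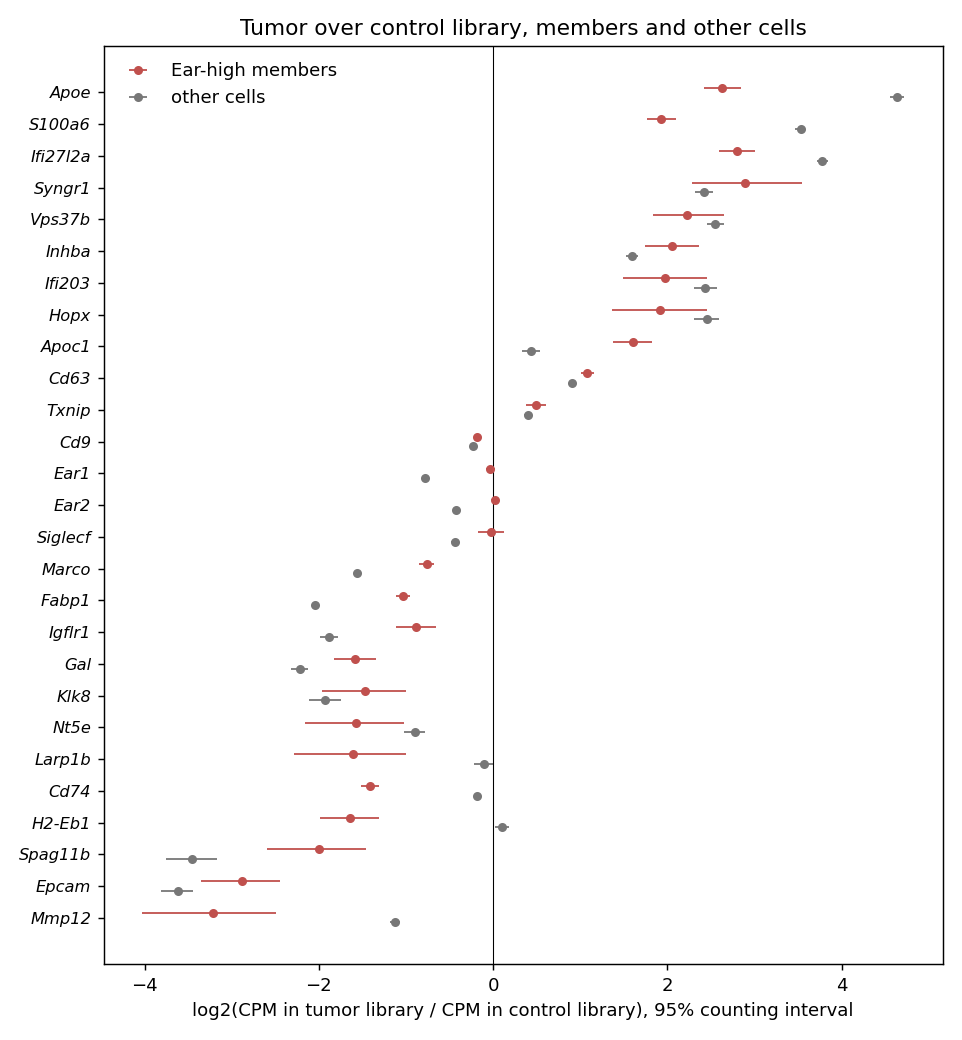
Log2 ratio of CPM in the tumor library over the control library in members (red) and in other cells (grey) for selected genes, with exact 95% counting intervals. Apoe and S100a6 are farther to the right in other cells, Apoc1 is farther to the right in members, and Cd74 and H2-Eb1 are at −1.41 and −1.64 in members.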

How the data were processed

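AMs of 1 control and 1 tumor library were profiled with the 10x Genomics 3′ assay. The authors deposited 1 table of raw UMI counts per gene and barcode for each library, with no normalization. Per the labels, bcl2fastq 2.20, Cell Ranger 4.0.0 and mm10 were used, while the methods of the study name another Cell Ranger release. Members and gene lists were chosen with earlier results of these data known. UMIs were summed over the cells of a group and given as CPM, with exact Poisson intervals for levels, exact conditional binomial intervals for ratios and Clopper-Pearson intervals for shares, all at 95%. Genes were called at 1.5-fold between members and other cells in both libraries, and at 2-fold between libraries, with at least 20 CPM in the higher group and 10 UMIs. The ratio code was tested on simulated data. Named were the markers, genes named by the study, the 12 most extreme genes in each direction, the 8 in each direction between libraries, and of each list the called and the highest expressed genes. Doublet scores came from Scrublet in scanpy 1.11.5, and analyses used Python 3.11.15, numpy 2.4.6, scipy 1.17.1, pandas 2.3.3 and biopython 1.88. Of 32285 gene IDs, 32158 matched a symbol. Alternatives covered 18 settings of the limit, filters, score, doublets, scaling and minimum level. Depth per cell, with medians of 10542 and 8443 UMIs, and the 457 tumor members limit the precision of low genes. Some genes are not reported here.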

Additional observations from a re-analysis of the deposited data

Results flagged for a closer look

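Several genes lay on opposite sides of 0 in the libraries, and the difference between libraries was not tested. The log2 ratio of members over other cells was 0.76 in control and -0.57 in tumor for *H2-Aa*, 0.80 and -0.65 for *H2-Ab1*, 0.76 and -0.99 for *H2-Eb1*, and 0.70 and -0.53 for *Cd74*. Smaller values of this kind were found for *Ly6e*, at 0.15 in control and -0.35 in tumor, and for *S100a1*, at -0.17 and 0.23. Without the cells high in *Apoe* and *S100a6*, *Ly6e* in tumor was at 0.00, with 349 CPM in members and in the other cells.

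*Ear1* and *Ear2* UMIs were also present in barcodes that did not pass the filter on cells, which entered no comparison. Barcodes over the mitochondrial limit held 774 CPM of the pair in control and 369 CPM in tumor. Barcodes under 500 genes or 2000 UMIs within that limit held 1427 CPM in control and 1049.9 CPM in tumor, against 1669 and 1082 CPM over the cells that passed.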

How the results depend on the processing

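Over 18 other settings, 85 of 102 values of the shares and counts stayed within their limits and 17 moved. Shares and counts cannot fall below 0, so none of them could change direction. The limits for counts were wide. With the set taken within each library, 70 genes were higher in tumor members against 47, which still counted as within the limits. The control and tumor shares were 7.48% and 3.01% at the highest 5%, 29.2% and 12.6% at the highest 20%, and 10.0% and 10.0% by construction within each library. They were 12.4% and 6.89% without the cells high in *Apoe* and *S100a6*, where the highest 10% was taken anew among the cells left. The count of genes higher in members, 12, was 20 at the highest 5%, 6 with the score from thinned cells, 7 with *Ear1* alone and 39 with no minimum CPM. The count lower, 39, was 62 at the highest 5% and 140 with no minimum CPM. Between libraries, 193 genes were higher in tumor members and 94 lower with no minimum CPM, against 47 and 28, and 44 were lower at the highest 5%.

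Of 2624 values of named genes, 1885 stayed within their limits, 723 moved and 16 changed direction, most of the 16 near 0. *Hspa8* in tumor was 0.02 at the highest 20%, 0.02 within each library, 0.01 from thinned cells and 0.02 with *Ear1* alone. *Pcna* in control was 0.09 with *Ear1* alone and 0.08 without cycling cells. *Lgals3* in tumor was 0.07 with *Ear1* alone, 0.12 without the cells high in *Apoe*, 0.03 with per-cell means and 0.07 weighted by depth. *Malat1* in tumor was 0.03 with *Ear1* alone. Without the cells high in *Apoe*, *Cd63*, *Apoe*, *Cd74* and *H2-Ab1* in tumor were 0.02, 0.41, 0.23 and 0.17. *Mki67* in control was 0.38 without cycling cells. Some values whose main interval held 0 also crossed 0 but were not counted among the 16. *S100a6* in control, at 0.05 (-0.09 to 0.19), was between -0.62 and 0.72 over the other settings. *Apoe* in control, at 0.13 (-0.08 to 0.32), was between -0.19 and 0.48. *Ifi27l2a* and *Insig1* in control fell under 1.5-fold in some settings, to -0.42 and -0.51 at the least, and *Cxcl1* in tumor to -0.57 with *Ear2* alone. The causes were not tested. Leaving out cycling cells, and leaving out *Gm42418* and *AY036118*, were chosen after seeing the data. No paired analysis was possible because each condition has 1 library.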
